A study of Bos taurus with 28 samples.

Results

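Cytokines, chemokines and interferons are the signals that immune cells and tissue cells exchange, and 118 genes for these signals, their receptors and their immediate interferon targets were compared in the liver of ketotic and healthy dairy cows. They were chosen by their names, with earlier results of these data known. For each, the platform annotation gave a single symbol that belongs to the interleukin, CC or CXC chemokine, tumour necrosis factor (TNF), interferon, interferon regulatory factor, interferon-induced, transforming growth factor beta (TGF-beta) or colony-stimulating factor families. The 118 genes were taken from 8073 named genes and lie on 129 probes, each spotted side by side as a pair on every array. Another 3 probes carried several symbols of which at least 1 had such a name, and they were not used.

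All 14 animals were multiparous Holstein cows soon after calving that had passed a physical examination on day 4. The 7 healthy cows were the controls. The 7 ketotic cows were put on 50% of their earlier intake, from day 5 by the study's design text and from day 4 by the sample labels, until they showed clinical signs of ketosis or reached day 14. Ketosis is the build-up of ketone bodies in a cow whose energy intake falls short of what milk production draws. The groups therefore differ in feed intake as well as in ketosis, and these cannot be told apart here. Ages, and the breed or tissues behind the common reference RNA beyond its origin in cattle, are not given in the sources used here.

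Hepatocytes carry receptors for many of these signals and answer interleukin-6 with acute-phase proteins. Kupffer cells, the macrophages of the liver, and lymphocytes passing through it make most of the ligands. Interferons act through JAK kinases and interferon regulatory factors on a broad set of target genes such as MX1 and ISG15.

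Each value below is the log2 ratio of liver RNA to the common reference, centred on the median of its array and averaged over the dye-swapped pair of arrays of a cow, so that 0 is the middle of the array. Which RNA stands above in the ratio follows from the dye that each title names for the liver, and this direction is called likely: hepatocyte markers lay above markers of lymphocytes and neutrophils on 28 of 28 arrays, with a smallest gap of 2.30 on the log2 scale. A ratio was missing where the deposited cell was empty or stood at its ceiling. Between 9.19% and 16.6% of spots were unusable in the healthy cows, and between 12.2% and 25.0% in the ketotic cows. Healthy cow 7 stood apart, with correlations across probes of 0.363 to 0.462 with the other cows, whose own correlations were all at least 0.716. A gene was tested when at least 5 cows per group had a value on both arrays.

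How complete the values were differed widely between these genes. Of the 118, 83 could be tested (70.3%), against 86.2% of all named genes. Only 38 had a usable ratio at every spot of all 28 arrays (32.2%), against 46.6% of all named genes. Over all their spots, 16.2% of the cells were empty and 0.692% were at the ceiling, beside 13.4% and 0.807% for all probes.

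Values were lost more often in the ketotic cows. The members had a usable ratio at 85.6% of spots in healthy cows and at 80.7% in ketotic cows, and all probes at 88.1% and 83.5%. Among the 118 genes, 56 had fewer usable spots in ketotic cows, 19 had more and 43 had equally many. The larger losses included genes read fully or almost fully in the healthy cows. IL18, a cytokine of macrophages that drives interferon gamma production, was usable at 28 of 28 healthy spots and 19 of 28 ketotic spots. CXCR4, the receptor that retains blood-forming cells and lymphocytes in tissue, gave the same 28 and 19. IFI27L2, an interferon-induced mitochondrial protein gene, gave 28 and 17, and CCL4, a chemokine that draws T cells and monocytes, gave 25 and 12. The loss ran the other way for TGFB3, a TGF-beta ligand, with 15 usable spots in healthy and 24 in ketotic cows. What made a ratio unusable was not tested.

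**Figure D1:**
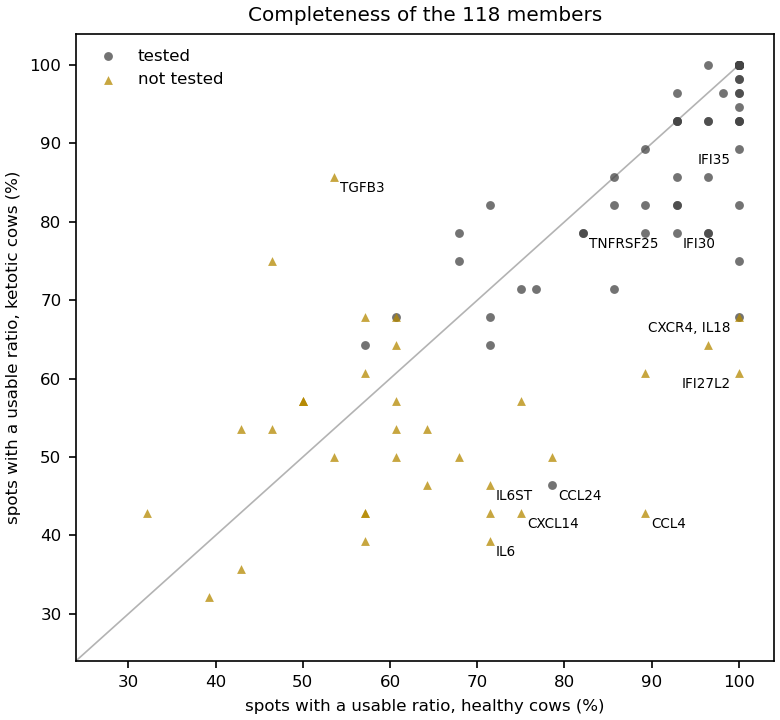
Share of spots with a usable ratio in healthy cows (x axis, %) and ketotic cows (y axis, %), 1 point per gene for the 118 genes; round points are the 83 tested genes, triangles the 35 that were not tested, and the grey line marks equal shares. IL18, CXCR4, IFI27L2 and CCL4 lie below the line and TGFB3 above it.

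Standard errors were larger where fewer ratios were usable. The 23 genes with at most 60% of spots usable were all untested. Among the 20 genes between 60% and 80%, 11 were tested, with a median standard error of 0.51 on the log2 scale. Among the 37 genes from 80% to just under 100%, 34 were tested, with a median standard error of 0.29. The 38 fully read genes had a median standard error of 0.20. All 3 genes that passed the limma test lay in the 80% to under 100% class. None of the 38 fully read genes passed, and 6 of them had an unadjusted p under 0.05. Of all 6958 tested genes, 12.4% were lower and 0.92% higher by that test. At an unadjusted p under 0.05, 1697 of the 6958 were lower and 279 higher.

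Of the 83 tested genes, 2 were lower in ketotic cows (2.41%), while 12.4% of all 6958 tested genes were lower by the same limma test at an adjusted p of 0.05. One gene was higher (1.20%), against 0.92% of all tested genes. IFI35 and IFI30, both induced by interferons, fell, and TNFRSF25, a death-domain receptor of the TNF family, rose. At an unadjusted p under 0.05, 9 were lower and 3 higher, beside 1697 and 279 of all 6958 tested genes. The median difference over the 83 genes was -0.005, beside -0.18 over all tested genes, with 43 differences below 0 and 40 above. Neither share of calls was set against the background by a test. RNA came from whole liver, so fewer cells of a type and less RNA per cell cannot be told apart.

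**Figure D2:**
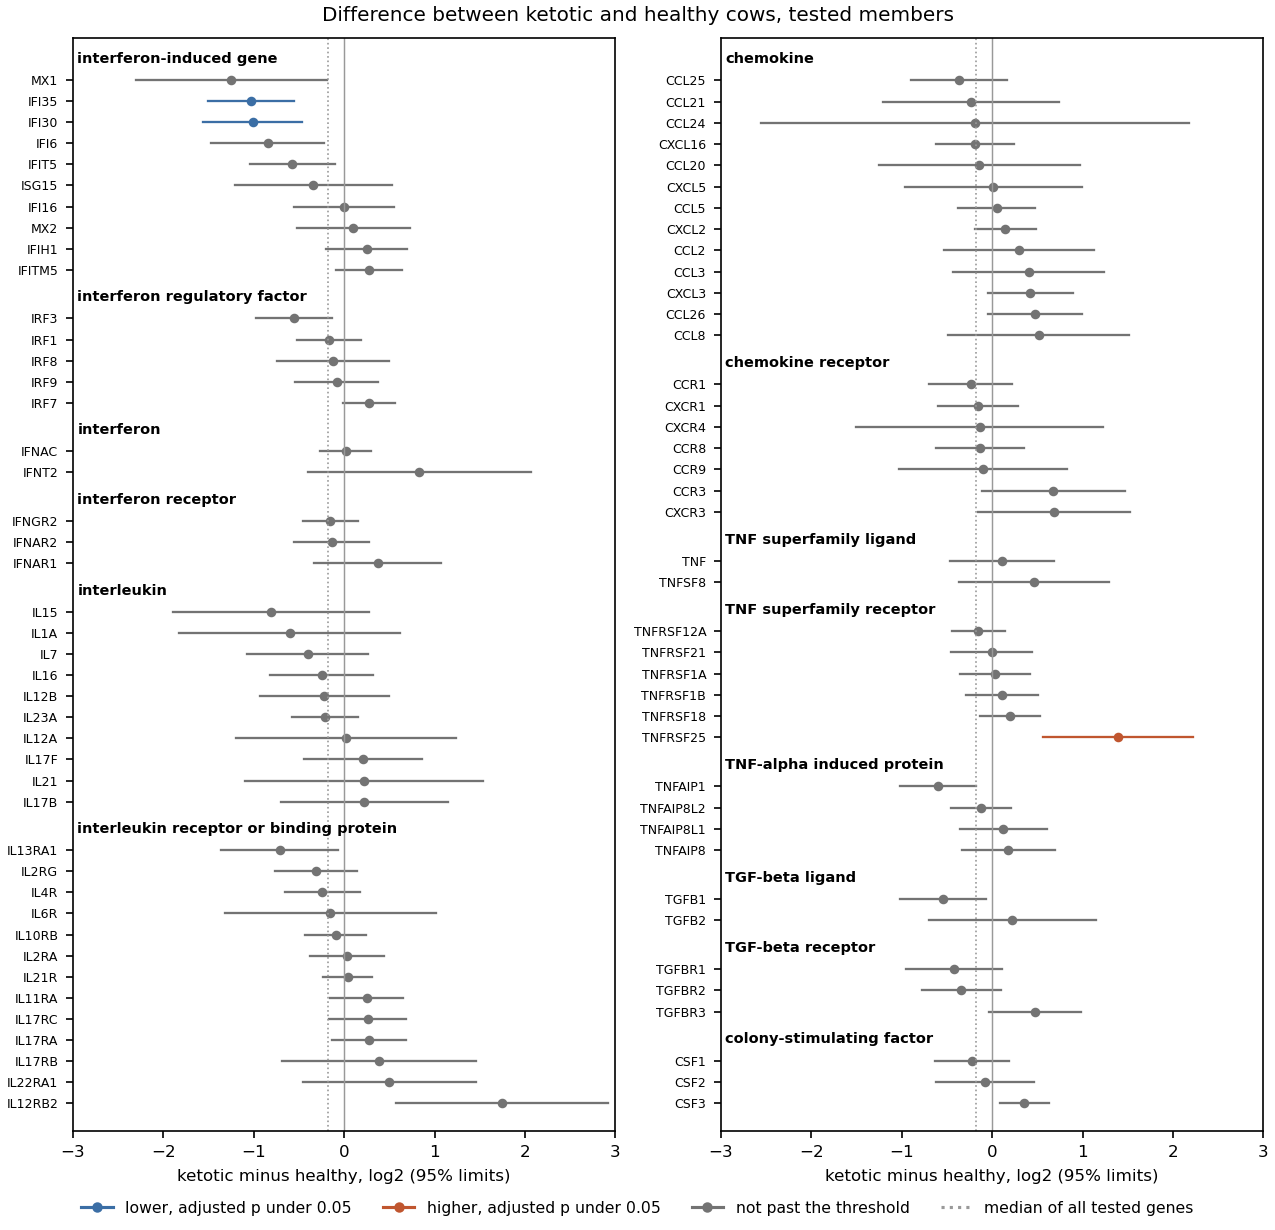
Difference between ketotic and healthy cows on the log2 scale (x axis) for the 83 tested genes, grouped by role, with 95% limits from limma; the solid line marks 0 and the dotted line the median of all tested genes, -0.18. IFI35 and IFI30 (blue) lie below 0 and TNFRSF25 (orange) above it, and most other intervals include 0.

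Interferon-induced genes held both falls. Of 12 such genes, 10 were tested, 2 were lower, none was higher and 8 did not pass. Of all tested genes, 12.4% were lower. At an unadjusted p under 0.05, 5 of the 10 were lower and 0 higher, beside 1697 and 279 of all 6958. The median difference of the 10 genes was -0.46. It was -0.86 with arrays left uncentred, -0.33 with arrays centred on the same probes, -0.27 with arrays scaled to one spread and -0.40 after quantile normalisation, where the median of all tested genes was -0.58, -0.05, -0.15 and -0.18. With liver in Cy5 alone, where 12 of these genes were tested, it was -0.13, with 7 differences below 0 and 5 above.

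IFI35, a cytoplasmic protein that pairs with the regulator NMI after interferon treatment, ranged from 0.39 through a median of 0.61 to 1.51 in the 7 healthy cows. In the 6 ketotic cows with a value it ranged from -1.09 through -0.14 to 0.13. Every ketotic value lay below every healthy value, which also held for 5.39% of all tested genes. The mean fell from 0.76 ± 0.38 (SD, n = 7) to -0.27 ± 0.43 (SD, n = 6), a difference of -1.03 ± 0.22 (SE; 95% limits -1.51 to -0.55; adjusted p = 0.0106), or 2.04-fold lower. IFI35 had 53 of 56 ratios, and the 3 gaps were in ketotic cows with liver in Cy3. The adjusted p was 0.143 with the liver-Cy3 arrays alone, 0.0842 with the liver-Cy5 arrays alone and 0.0846 with the share of unusable spots as a covariate.

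IFI30, the thiol reductase that unfolds antigens in the endosomes of antigen-presenting cells, had healthy values of -0.45, -0.27 and 0.57 at the lowest, median and highest of 7 cows. The 6 ketotic values ran from -1.83 through -0.89 to -0.39. In 5 of 6 ketotic cows the value was below the lowest healthy one, and ketotic cow 5 overlapped the healthy range. The difference was -1.01 ± 0.26 (SE; 95% limits -1.56 to -0.46; adjusted p = 0.0204), or 2.01-fold lower. IFI30 was usable at 26 of 28 healthy and 22 of 28 ketotic spots, with 2 ratios at the ceiling. With the ceiling ratios kept, the difference was -0.93 and the adjusted p 0.582. It was -0.71 (adjusted p = 0.432) on the liver-Cy5 arrays alone, and the call was also lost with arrays centred on the same probes (0.0539), scaled to one spread (0.0584) or quantile-normalised (0.0513).

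Of 17 macrophage and Kupffer cell markers, a list made with earlier results of these data known, 10 were tested. Of these, 3 were lower and 7 did not pass, and 12.4% of all tested genes were lower. The 3 were AIF1 (-1.27), LAPTM5 (-0.96) and CD74 (-0.88), and the median difference over the 10 was -0.29, beside -0.18 over all tested genes. The mean of that list per cow, after centring each gene, ran from -0.95 to 0.92 in healthy cows and from -0.71 to 0.13 in ketotic cows, so the groups overlapped. The part of these cells in the values of IFI30 and IFI35 was not tested.

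Markers of other cells that a liver sample can hold were taken from lists as well, also made with earlier results known. Of all tested genes, 12.4% were lower and 0.92% higher. Among T and NK cell markers, 1 of the 6 tested of 15 was lower (GNLY, -0.68), and the median difference was -0.32. CD4 differed by 0.49 in the other direction and did not pass (adjusted p = 0.0559). Among neutrophil markers, 1 of the 6 tested of 10 was higher (MMP9, 1.25), and the median difference was 0.03. FCGR3A differed by -1.44 in the other direction and did not pass (adjusted p = 0.0747). Of the B cell markers 2 of 6 were tested and CD79B was higher. Hepatocyte markers had 2 higher genes, ALB and APOA1, among 14 tested of 16, and the other 12 did not pass. Their median difference was 0.57. APOB, HPX and ASGR1 differed by -0.26, -0.11 and -0.03 in the other direction. Neither the 7 tested stellate cell and fibroblast markers nor the 6 tested endothelial markers held a call, and their median differences were -0.91 and -0.08.

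Other interferon-induced genes had lower ketotic means without passing. MX1, a GTPase that traps viruses, had values of -2.11, -0.77 and 1.27 in healthy cows and -3.10, -2.11 and -0.76 in ketotic cows (lowest, median, highest), with wide overlap. Its difference of -1.25 ± 0.50 (SE) had an adjusted p of 0.111. IFI6, which stabilises mitochondria in interferon-treated cells, differed by -0.85 (adjusted p = 0.0702), and IFIT5, an RNA-binding antiviral protein, by -0.57 (adjusted p = 0.0993). These 3 genes had a difference below 0 under each of the 15 other processing choices, at sizes of -1.65 to -0.73 for MX1, -1.26 to -0.43 for IFI6 and -0.97 to -0.44 for IFIT5.

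The remaining tested genes grouped as interferon-induced lay closer to 0. ISG15, the ubiquitin-like modifier, differed by -0.34 (95% limits -1.21 to 0.53). MX2, the relative of MX1, differed by 0.10 (95% limits -0.53 to 0.73) and IFI16, a sensor of DNA, by less than 0.01 in size (95% limits -0.55 to 0.55). IFIH1, a sensor of viral RNA, differed by 0.25, and IFITM5, a bone-restricted member of the IFITM family, by 0.28. IFITM5 was counted in this group through its name, and whether interferon induces it was not tested.

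**Figure D3:**
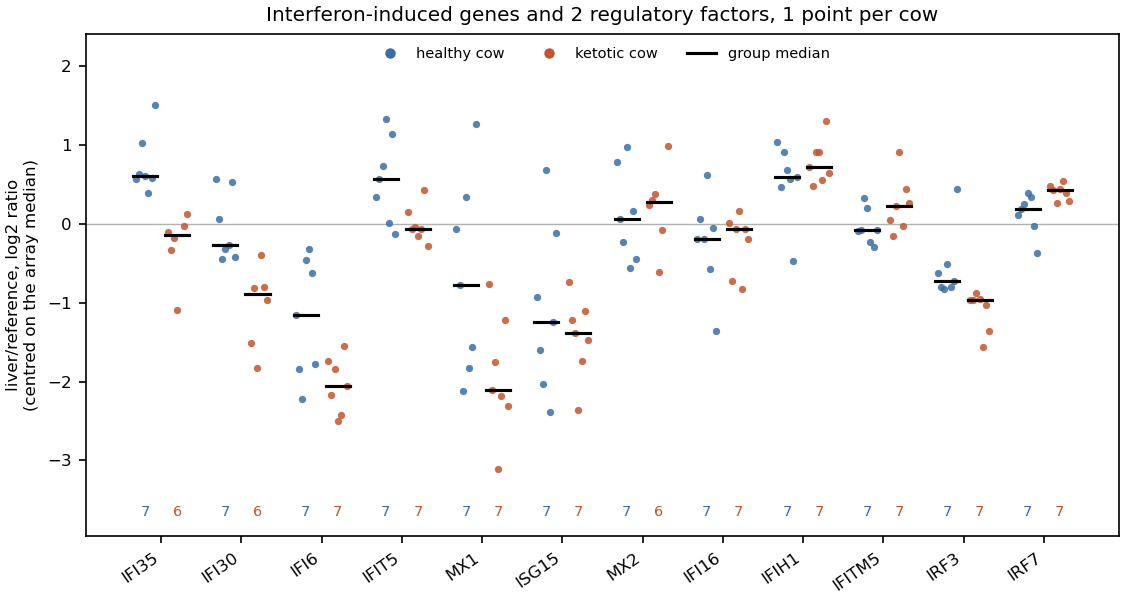
Log2 ratio of liver to reference (y axis), 1 point per cow, for the 10 tested interferon-induced genes and for IRF3 and IRF7; blue is healthy, orange is ketotic, black lines are group medians, and the figures at the foot give the number of cows. For IFI35 and IRF3 all ketotic points lie below all healthy points, and for ISG15, MX2 and IFI16 the groups overlap.

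Both untested interferon-induced genes lacked ketotic values. IFI27L2 had healthy values from -1.75 through -1.06 to -0.83 in 7 cows and -1.78, -1.65 and -1.38 in 3 ketotic cows. IFIT3, a partner of other IFIT proteins in binding foreign RNA, had values from -1.15 to 1.04 in 7 healthy cows and from -1.24 to 0.73 in 4 ketotic cows.

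Upstream of these targets, no interferon regulatory factor passed among the 5 tested (1 lower, 0 higher at an unadjusted p under 0.05). IRF3, the factor that switches on interferon beta, was read at every spot. Its healthy values were -0.82, -0.72 and 0.44 at the lowest, median and highest, and its ketotic values -1.56, -0.97 and -0.88. All 7 ketotic values were below all 7 healthy values, yet the adjusted p was 0.0775 for a difference of -0.55 ± 0.20 (SE). Healthy cow 7 held the highest value, far from the next healthy value of -0.51; without that cow the difference was -0.39 and the adjusted p 0.0553. IRF3 and IFI35 were the only tested members of the 83 whose ketotic values all lay below the healthy ones (2.41%, beside 5.39% of all genes), and none had the reverse (0.316% of all genes).

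IRF7, which amplifies the interferon alpha response, pointed the other way, by 0.28 ± 0.14 (SE; adjusted p = 0.199), from healthy values of -0.37, 0.20 and 0.40 to ketotic values of 0.26, 0.43 and 0.54. In 4 of 7 ketotic cows IRF7 was above the highest healthy value. Without centring its difference was below 0, at -0.12. IRF1, a target of interferon gamma, IRF8, a factor of macrophages and dendritic cells, and IRF9, a part of the complex that answers interferon alpha, differed by -0.17, -0.13 and -0.08.

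Among the interferons, 2 of 3 were tested and neither passed. IFNAC, an interferon alpha gene, was read at every spot, with healthy values from 0.05 to 0.61, ketotic values from 0.26 to 0.80, and a difference of 0.02 (95% limits -0.27 to 0.30). Interferon alpha genes form a family of near-identical copies, so this probe cannot separate them with certainty. IFNT2, an interferon tau gene of the ruminant embryo, differed by 0.83 with 95% limits of -0.40 to 2.07. IFNG, interferon gamma, had a value in 4 healthy cows (-0.74 to 2.45) and in 7 ketotic cows (0.67 to 2.82), and was not tested.

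Their receptors gave some of the most complete data and no call. IFNAR1 and IFNAR2, the chains of the receptor for interferon alpha and beta, differed by 0.37 and -0.14, with adjusted p-values of 0.507 and 0.694. Healthy cow 7 held the lowest value of both, and without it they differed by 0.06 and -0.31. IFNGR2, a chain of the interferon gamma receptor, differed by -0.15 with 95% limits of -0.45 to 0.15. All 3 were usable at every spot.

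Genes that answer interferon but carry other names were taken as a list of 30, chosen by function with earlier results of these data known. Of these, 15 were tested, 2 were lower (13.3%, beside 12.4% of all tested genes) and none was higher. Their median difference was -0.20, beside -0.18 over all tested genes. PSMB9, a subunit of the immunoproteasome, differed by -1.04 (adjusted p = 0.0155), and B2M, the light chain of MHC class I, by -0.97 (adjusted p = 0.011). TAP1, the peptide transporter that feeds MHC class I, differed by 0.62 in the other direction and did not pass (adjusted p = 0.0801).

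No interleukin passed among the 10 that could be tested of 20, and none had an unadjusted p under 0.05. Their median difference was -0.22. IL23A, a subunit of interleukin-23 and the only interleukin gene read at every spot, had healthy values of 0.54, 0.79 and 1.31 (lowest, median, highest) and ketotic values of 0.23, 0.73 and 1.13. The groups overlapped, and the difference was -0.21 (95% limits -0.58 to 0.15; adjusted p = 0.452).

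The other interleukins were read less well. IL15, a growth factor of natural killer cells, differed by -0.81 with limits of -1.89 to 0.28, and IL7, which keeps lymphocytes alive, by -0.40. IL1A, an alarm cytokine, differed by -0.60 with limits of -1.83 to 0.62. IL12A and IL12B, the subunits of interleukin-12, differed by 0.02 and -0.22. IL16, IL17B, IL17F and IL21 lay between -0.25 and 0.22. At these errors, a change of the size seen for IFI35 was inside the limits of IL15, IL1A, IL7, IL12A and IL21.

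Several of the best-known inflammatory cytokines could not be tested. IL6, the main inducer of the acute-phase response, had 20 usable spots in healthy cows and 11 in ketotic cows. In healthy cows 14 of its 14 liver-Cy3 spots but 6 of its 14 liver-Cy5 spots were usable. IL6 had values of -2.63, -2.06 and 2.61 (lowest, median, highest) in 5 healthy cows, the highest in healthy cow 7, and -0.75 and 1.62 in 2 ketotic cows.

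IL1B, the fever cytokine, spanned -0.13 to 1.85 in 7 healthy cows and 0.14 to 1.24 in 4 ketotic cows. IL10, the cytokine that restrains macrophages, had values in 4 healthy cows (0.49 to 2.86) and 3 ketotic cows (0.15 to 1.53). The groups overlapped for both genes. The T cell cytokines IL2, IL3, IL4, IL5, IL13 and IL17A had values in 2 to 6 healthy cows and 3 to 4 ketotic cows.

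IL18 went untested although its healthy values were complete. It was read in all 7 healthy cows, at -0.72, -0.36 and 0.21 (lowest, median, highest), and in 4 ketotic cows at -2.66, -1.66, -1.25 and -0.19. Ketotic cow 4 lay within the healthy range and the other 3 below it. On the liver-Cy3 arrays alone IL18 differed by -1.45 (adjusted p = 0.0329), and on the liver-Cy5 arrays alone by -0.81 (adjusted p = 0.265). With one array enough for a cow, IL18 was among the 4 lower members, at -1.12.

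**Figure D4:**
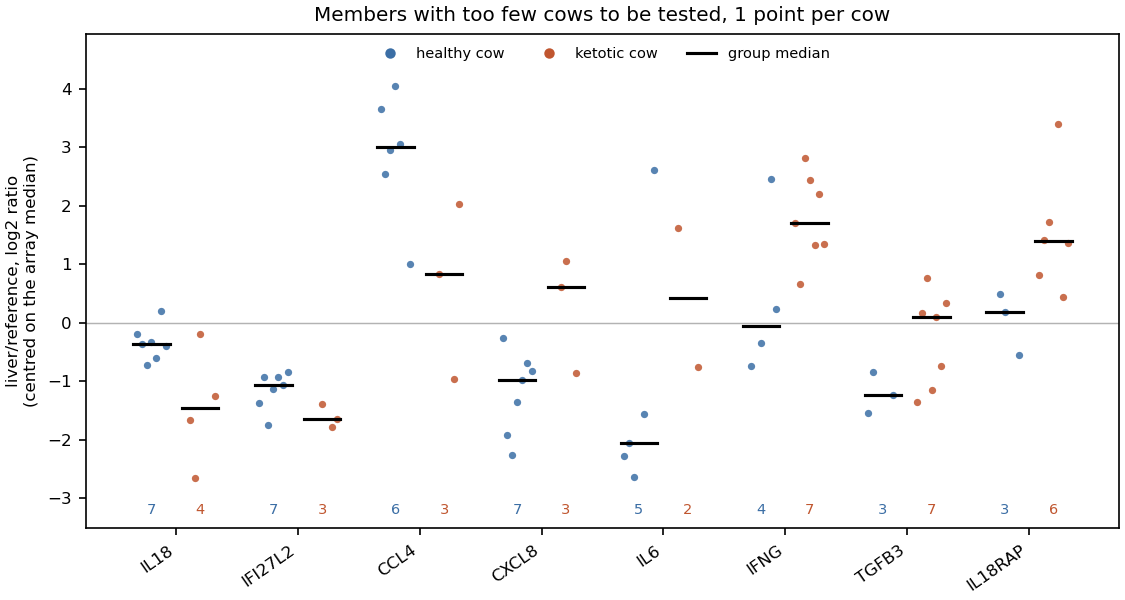
Log2 ratio of liver to reference (y axis), 1 point per cow, for 8 genes with too few cows to be tested; blue is healthy, orange is ketotic, black lines are group medians and the figures at the foot give the number of cows with a value. IL18 has 7 healthy and 4 ketotic points, of which 3 lie below the healthy range, and IFNG has 4 healthy and 7 ketotic points that overlap.

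Interleukin receptors were more often complete than the interleukins: 13 of 18 were tested and 9 were read at every spot. None passed (1 lower and 1 higher at an unadjusted p under 0.05), and their median difference was 0.04. IL12RB2, the signalling chain of the interleukin-12 receptor, came closest. Its healthy values were -1.03, -0.91 and 0.34 in 5 cows and its ketotic values 0.17, 0.75 and 3.53 in 6 cows (lowest, median, highest), and 5 of the 6 were above the highest healthy value. The difference was 1.75 ± 0.54 (SE; 95% limits 0.57 to 2.92; adjusted p = 0.0517). IL12RB2 was usable at 17 of 28 healthy and 19 of 28 ketotic spots, and neither subunit of its ligand passed. Without healthy cow 7, which had no value for IL12RB2, the adjusted p was 0.037.

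IL13RA1, a receptor chain for interleukins 4 and 13, had healthy values of 0.71, 2.58 and 2.81 and ketotic values of 0.96, 1.82 and 2.15 (lowest, median, highest). The difference was -0.71 ± 0.31 (SE; adjusted p = 0.136), and the lowest value of all was that of healthy cow 7. Without that cow IL13RA1 differed by -0.99 (adjusted p = 0.00381). IL4R, the chain that pairs with it, differed by -0.24 (95% limits -0.65 to 0.17).

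IL6R, the interleukin-6 receptor through which hepatocytes sense IL6, stood far above the middle of the array. Its healthy values were 0.33, 4.09 and 4.97 and its ketotic values 2.81, 3.71 and 4.15 (lowest, median, highest). The difference was -0.15 ± 0.55 (SE; adjusted p = 0.895). Without healthy cow 7, which held the value of 0.33, it was -0.72 (adjusted p = 0.0442). IL6ST, the shared signalling chain gp130, had values in 4 healthy and 2 ketotic cows, all of them above 0, and was not tested.

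The other fully read interleukin receptors had narrow limits around 0. IL21R differed by 0.04 (95% limits -0.23 to 0.31), and IL21, its ligand, by 0.22 with limits of -1.10 to 1.54. IL10RB, a chain shared by the interleukin-10 family, differed by -0.09 (95% limits -0.43 to 0.25), and IL2RA, the chain that raises affinity for interleukin-2, by 0.03 (95% limits -0.38 to 0.44). IL2RG, the chain common to the receptors of IL7, IL15 and IL21, differed by -0.31 (95% limits -0.76 to 0.14).

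The receptor chains IL17RA and IL17RC, which together bind IL17A and IL17F, were read at every spot and differed by 0.28 and 0.26, with adjusted p-values of 0.374 and 0.435. IL17RB differed by 0.38 with wider limits of -0.69 to 1.46, and its ligand IL17B by 0.22. IL11RA and IL22RA1 differed by 0.25 and 0.50. The 2 probes of IL11RA had opposite signs, at 0.51 ± 0.24 and -0.08 ± 0.20 (SE). Without healthy cow 7, IL17RC differed by 0.09 and IL11RA by 0.08. The untested receptors and binding proteins were IL12RB1 (4 healthy and 2 ketotic cows), IL18BP (5 and 2) and IL18RAP (3 and 6). IL1R2, a decoy receptor for interleukin-1, had values in 6 and 7 cows from 2 probes, neither of which reached 5 cows in both groups.

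No chemokine passed among the 13 tested of 22, with 0 lower and 0 higher at an unadjusted p under 0.05, and their median difference was 0.05. The fully read chemokines were CXCL2, CXCL3, CXCL5 and CXCL16. CXCL2 and CXCL3, which attract neutrophils, differed by 0.15 and 0.42, the latter with limits of -0.05 to 0.90. CXCL16, a membrane-bound chemokine that binds CXCR6, differed by -0.18 (95% limits -0.62 to 0.25).

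CXCL5, another neutrophil chemokine, lay far below the middle of the array, at -5.03, -4.26 and -1.58 in healthy cows and -4.88, -3.93 and -2.66 in ketotic cows (lowest, median, highest). The highest value, -1.58, was that of healthy cow 7, and the next healthy value was -3.93. The difference between the groups was 0.01 ± 0.46 (SE), and 0.41 (adjusted p = 0.392) without healthy cow 7.

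Among the CC chemokines, CCL26, an eosinophil attractant, had the smallest p (difference 0.47, adjusted p = 0.222). CCL25, which homes T cells to the gut, differed by -0.36 (adjusted p = 0.369) and by -0.56 without healthy cow 7 (adjusted p = 0.0348). CCL2, the monocyte attractant, differed by 0.30 (95% limits -0.54 to 1.13), CCL3 by 0.40 and CCL5, a T cell attractant read from 2 probes, by 0.05. The 2 probes of CCL5 had opposite signs, at -0.16 ± 0.22 and 0.27 ± 0.21 (SE). CCL8, CCL20, CCL21 and CCL24 ranged from -0.23 to 0.52. CCL24 had the widest limits of all, -2.56 to 2.17, from 22 usable healthy and 13 usable ketotic spots.

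The interferon-inducible chemokines CXCL9, CXCL10 and CXCL11 were all untested, with values in 3 to 4 healthy and 2 to 5 ketotic cows. CXCL8, the main neutrophil attractant, had healthy values of -2.26, -0.98 and -0.26 (lowest, median, highest) in 7 cows and -0.85, 0.61 and 1.06 in 3 ketotic cows. Of the 3 ketotic cows, 2 lay above every healthy cow. CCL4 had healthy values from 1.0 to 4.04 in 6 cows and -0.97, 0.83 and 2.04 in 3 ketotic cows. CCL11, CCL14, CXCL13 and CXCL14 had 4 to 5 healthy and 2 to 4 ketotic cows.

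Of 10 chemokine receptors, 7 were tested and none passed, also at an unadjusted p under 0.05. CCR3, the eosinophil receptor that binds CCL24 and CCL26, had the smallest p (difference 0.68, 95% limits -0.11 to 1.47; adjusted p = 0.248). CXCR3, the receptor for CXCL9, CXCL10 and CXCL11, differed by 0.69 (95% limits -0.15 to 1.53). CCR8, a receptor of regulatory T cells with values at all but 1 of its spots, differed by -0.13 and CCR9, the receptor for CCL25, by -0.10.

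CCR1 and CXCR1, receptors of monocytes and neutrophils that bind CCL3 with CCL5 and CXCL8, differed by -0.24 and -0.16. CXCR1 has a close paralog, so its probes may read both. CXCR4 lay far below the middle of the array, with healthy values of -6.04, -4.89 and -1.48 in 7 cows and ketotic values of -5.48, -4.87 and -3.99 in 5 cows (lowest, median, highest). Its difference of -0.14 ± 0.64 (SE) became 0.40 (adjusted p = 0.408) without healthy cow 7, which held the value of -1.48. CCR4, CXCR5 and CXCR6 had 2 to 4 healthy and 2 to 4 ketotic cows and were not tested.

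In the TNF family, TNFRSF25 alone passed, of 6 tested receptors. This receptor signals for cell death or for T cell growth when it binds TNFSF15. Its values were -1.04, -0.68 and -0.11 (lowest, median, highest) in 5 healthy cows and -0.24, 0.55 and 1.87 in 5 ketotic cows. In 4 of 5 ketotic cows the value was above every healthy value, and ketotic cow 6, at -0.24, overlapped the healthy range. The difference was 1.39 ± 0.38 (SE; 95% limits 0.56 to 2.22; adjusted p = 0.0336), or 2.63-fold higher.

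The call for TNFRSF25 used the fewest cows that could be tested. It had 23 usable spots of 28 in healthy and 22 of 28 in ketotic cows, and it dropped out of the test whenever 1 of its 10 cows was left out. The difference fell to 0.62 (adjusted p = 0.499) when one array was enough for a cow, and to 0.32 (adjusted p = 0.839) with the share of unusable spots as a covariate. It was 0.70 (adjusted p = 0.196) on the liver-Cy3 arrays alone and 1.28 (adjusted p = 0.479) on the liver-Cy5 arrays alone. The call was also lost after quantile normalisation. It held under 9 of the 14 other processing choices that gave a value.

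The other TNF family genes did not pass. TNF, the macrophage cytokine itself, had healthy values of 0.42, 0.85 and 1.15 and ketotic values of 0.30, 0.77 and 2.13 (lowest, median, highest), and the difference was 0.11 (95% limits -0.47 to 0.68). Its receptors TNFRSF1A and TNFRSF1B, both read at every spot, differed by 0.03 (95% limits -0.36 to 0.42) and 0.11 (95% limits -0.29 to 0.51). TNFRSF12A, TNFRSF18 and TNFRSF21, also read at every spot, differed by -0.15, 0.20 and less than 0.01 in size. TNFSF8, the ligand of CD30, differed by 0.46 with limits of -0.37 to 1.29. TNFRSF6B, TNFRSF9 and TNFRSF11A had 4 to 5 healthy and 2 to 4 ketotic cows.

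Among the genes named for induction by TNF, TNFAIP1, an adaptor of ubiquitin ligases, came nearest the threshold. Its healthy values were 0.37, 0.56 and 0.88 and its ketotic values -0.56, -0.11 and 1.0 (lowest, median, highest). Below every healthy cow lay 6 of the 7 ketotic cows, while ketotic cow 6, at 1.0, lay above them all. The difference was -0.60 ± 0.20 (SE; adjusted p = 0.0564), and without ketotic cow 6 it was -0.77 (adjusted p = 0.0049). TNFAIP1 passed under 4 of 15 other processing choices. They were no centring, values in all 7 cows, trend and robust settings of eBayes, and array weights. The 2 probes of TNFAIP1 disagreed, with differences of -0.13 ± 0.24 and -1.08 ± 0.23 (SE).

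The relatives TNFAIP8, TNFAIP8L1 and TNFAIP8L2, regulators of cell death and immune tone, were read at every spot and differed by 0.18, 0.13 and -0.13. TNFAIP6, a hyaluronan-binding protein, had values in 2 healthy and 3 ketotic cows and was not tested.

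TGF-beta ligands and receptors held no call among 5 tested genes of 6 (1 lower and 0 higher at an unadjusted p under 0.05). TGFB1, the ligand best known for driving liver fibrosis, was read at every spot, with healthy values of -1.88, -1.23 and -0.27 and ketotic values of -2.39, -1.74 and -1.31 (lowest, median, highest). All 7 ketotic cows were below the healthy mean but the ranges overlapped, and the difference was -0.55 ± 0.22 (SE; adjusted p = 0.123). Its receptors TGFBR1 and TGFBR2 differed by -0.42 (95% limits -0.95 to 0.11) and -0.34 (95% limits -0.78 to 0.09). TGFBR3, the co-receptor that presents the ligand, differed by 0.47 (95% limits -0.04 to 0.99). Healthy cow 7 held the highest TGFB1 value, -0.27. Without healthy cow 7, TGFB1 differed by -0.39, TGFBR1 by -0.19 and TGFBR3 by 0.30.

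TGFB2 was far below the middle of the array, at -4.84, -4.30 and -2.56 in 6 healthy cows and -5.36, -3.91 and -3.09 in 6 ketotic cows (lowest, median, highest), with a difference of 0.22 ± 0.43 (SE). TGFB3 had 3 healthy values, from -1.55 to -0.84, and 7 ketotic values, from -1.35 to 0.77, and was not tested.

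All 3 colony-stimulating factors were tested and none passed (0 lower and 1 higher at an unadjusted p under 0.05). CSF3, which drives the making of neutrophils, had healthy values of 0.11, 0.32 and 0.62 and ketotic values of 0.42, 0.65 and 0.92 (lowest, median, highest). In 4 of 7 ketotic cows the value was above every healthy cow, and the difference was 0.36 ± 0.13 (SE; adjusted p = 0.0785). CSF3 passed with arrays centred on the same probes (0.49, adjusted p = 0.0389), while without centring its difference was -0.04. CSF1, the growth factor of macrophages, differed by -0.22 (95% limits -0.63 to 0.19) and CSF2 by -0.08.

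The signalling chain downstream of these receptors was taken as a list of 67 genes, chosen by function with earlier results of these data known. Of these, 41 were tested, 4 were lower (9.76%, beside 12.4% of all tested genes) and none was higher. Their median difference was -0.19, beside -0.18 over all tested genes. JAK1, the kinase shared by interferon and interleukin-6 receptors, differed by -0.89 (adjusted p = 0.00341), and RELA, the transactivating subunit of NF-kappaB, by -1.08 (adjusted p = 0.00243). RIPK1, a kinase below the TNF receptor, differed by -0.81 (adjusted p = 0.0245), and SMAD2, which carries the TGF-beta signal, by -0.85 (adjusted p = 0.0116).

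Each dye orientation was also compared on its own. Of 89 members that could be tested with both orientations, 59 had the same sign in the 2 fits (66.3%), 29 of them lower and 30 higher. Of all 7231 genes tested with both, 74.4% had the same sign. With liver in Cy3 alone, 3 of 102 tested members were lower, IFI30, IFI6 and IL18, beside 8.73% of all 7432 genes tested that way. With liver in Cy5 alone, none of 100 tested members was lower, beside 0.144% of all 7633 genes. At an unadjusted p under 0.05, 6 members were lower and 1 higher with liver in Cy5. MX1, read at every spot, differed by -1.40 with liver in Cy3 and by -1.09 with liver in Cy5, and neither passed. IFI6 was less even, at -1.26 (adjusted p = 0.0231) and -0.43 (adjusted p = 0.661).

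**Figure D5:**
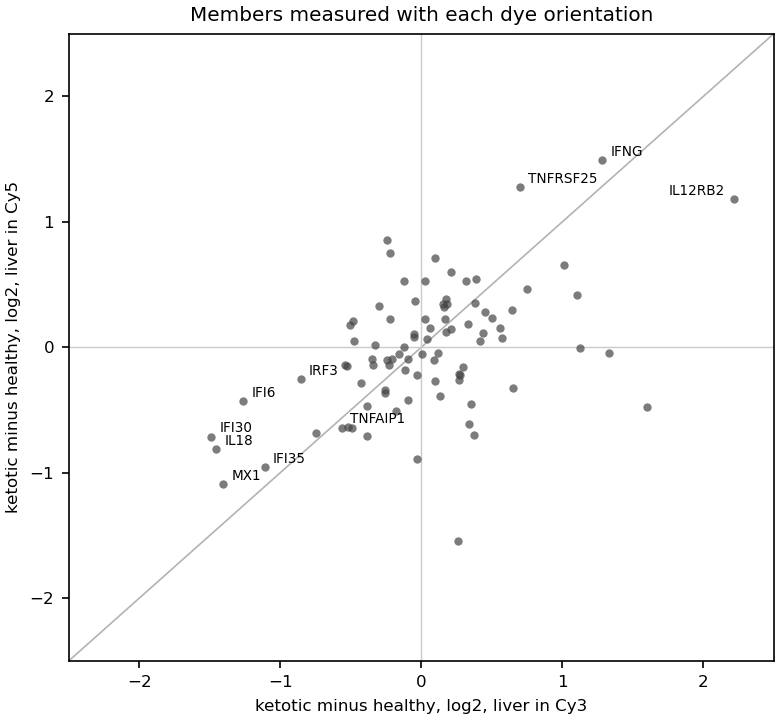
Difference between ketotic and healthy cows on the log2 scale for members tested with each dye orientation, liver in Cy3 on the x axis and liver in Cy5 on the y axis; 1 point per gene, and the diagonal marks equal differences. IFI30, IFI35, IFI6, MX1 and IL18 lie below 0 on both axes, and TNFRSF25, IL12RB2 and IFNG above 0 on both.

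Against the reference pool, few of these genes lay wholly below the middle of the array. Every healthy value was below the array median for 9 of the 83 tested members (10.8%), against 27.5% of all tested genes, and above it for 22 (26.5%), against 22.4%. The median of the healthy means was 0.39 for the members and -0.10 for all genes. These shares were not set against each other by a test. The standard deviation between cows had a median of 0.49 over the members and 0.42 over all genes in healthy cows, and of 0.40 and 0.36 in ketotic cows.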

How the data were processed

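Liver RNA of 14 cows was hybridised with a common reference on 28 two-colour cDNA arrays, 2 per cow with the dyes exchanged. Per spot, the authors deposited a log2 ratio of the dyes, made from scanner intensities not used here; the background correction and normalisation are not given in the sources used here, and array medians ran from -1.05 to 2.16. Empty cells and the ceiling of 16.61 were read as missing. Liver-Cy3 arrays were sign-turned by the dyes in the titles; 1 ketotic array names the same dye in both label fields, so its title was used. The 27648 spots were averaged in adjacent pairs to 13824 probes, more than the number of elements in the design text, and control spots could not be told apart. Each array was centred on its median. A cow's value needed both arrays, a probe at least 5 cows per group, and a gene's value was the mean of its centred probes. This left 10420 probes and 6958 genes.

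Gene names came from the platform annotation, which can be old, updated through gene IDs with the RefSeq table of assembly ARS-UCD2.0; of the probes, 8645 had 1 symbol, 105 several and 5074 none, and 8620 with 1 symbol matched. No member's symbol changed. Coordinates and sequences are not given.

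The groups were compared with limma 3.58.1 (lmFit and eBayes, R 4.3.3), two-sided, with Benjamini-Hochberg adjustment over all 6958 genes and a threshold of 0.05; errors are moderated standard errors. The fit was tested on simulated data. The members and lists were chosen with earlier results of these data known. Named were every member past the threshold, in each role up to 2 others with the smallest p and the most complete one, every member read at all spots, ligand and receptor pairs both tested, and untested members with their number of cows. Nothing in the labels gives a batch. The labels name separate cows, and the 7 cows per group limit the precision. The 17 alternatives and 14 left-out cows are given at the end. Figures were drawn with matplotlib 3.10.9.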

Additional observations from a re-analysis of the deposited data

Results flagged for a closer look

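In 22 of the 166 groups of 5 to 7 cows, 1 cow lay far from the rest by Dixon's test at the 95% level; chance flags about 1 in 20 such groups, or 8.3 here. Healthy cow 7 accounted for 12 of the 22, and its whole profile also correlated least with the other cows. Its value was the lowest healthy one for IL6R (0.33, next 3.80), IL13RA1 (0.71, next 2.54), IFNAR1 (-1.09, next 0.62), IFNAR2 (-0.40, next 0.49), IL11RA (-0.68, next 0.21), IL17RC (-0.33, next 0.60), TGFBR3 (-0.82, next 0.13) and CCL25 (-1.49, next -0.23). It was the highest for CXCR4 (-1.48, next -4.66), CXCL5 (-1.58, next -3.93), TGFBR1 (0.48, next -0.93) and IRF3 (0.44, next -0.51).

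Ketotic cow 6 stood highest of the ketotic cows for TNF (2.13, next 0.96), IFNGR2 (1.76, next 1.31), TNFAIP1 (1.0, next 0.03) and TNFRSF1A (0.64, next 0.18). These genes were picked out by the search for outlying values, and a link between them was not tested. Ketotic cow 5 was highest for CCR3 (2.72, next 1.06) and lowest for CXCR1 (0.51, next 0.98). Single values stood apart for IL12B in ketotic cow 3 (-0.74, next 0.16), TGFB2 in healthy cow 2 (-2.56, next -4.04), CCL21 in healthy cow 5 (3.16, next 1.18) and IFIH1 in healthy cow 6 (-0.47, next 0.47).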

How the results depend on the processing

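IFI30 and IFI35 passed in all 14 fits that left out a cow, and their differences kept their sign in every fit that gave a value. The difference of TNFRSF25 kept its sign under every other processing choice that gave a value. Leaving out a cow could not change it, because a value remained only where that cow had none for TNFRSF25. Without a cow, 2 to 7 members were lower and 0 to 1 higher. The 7 came without healthy cow 7 (CCL25, IFI30, IFI35, IFI6, IFIT5, IL13RA1 and IL6R). That fit tested 77 members, and 1265 of all 6878 tested genes were lower in it (18.4%). Against 2 lower and 1 higher, the counts of lower and higher members were 13 and 1 without centring, 1 and 2 with arrays centred on the same probes, 1 and 0 after quantile normalisation, 0 and 0 with liver in Cy5 alone, and 3 and 0 with liver in Cy3 alone. They were 4 and 1 with one array enough for a cow, 1 and 0 with values in all 7 cows, 1 and 1 with ceiling ratios kept, 3 and 2 with trend and robust settings of eBayes, 6 and 3 with array weights, 1 and 0 with the share of unusable spots as a covariate, 6 and 3 at an adjusted p of 0.10, and 0 and 0 at 0.01 (9 lower and 3 higher unadjusted). The calls were not always those of the main fit. With one array enough for a cow, the higher member was IL12RB2 and not TNFRSF25. With values in all 7 cows, the lower member was TNFAIP1. IFI30 and IFI35, with values in 6 ketotic cows, were not tested there. In the main fit, 12.4% of all tested genes were lower and 0.92% higher. These shares were 18.2% and 2.03% with array weights and 17.9% and 2.16% at an adjusted p of 0.10. They were 8.36% and 1.06% with one array enough for a cow, and 15.8% and 1.15% with values in all 7 cows. They were 2.3% and 0.115% with the covariate, and 3.19% and 0.0719% at an adjusted p of 0.01. Trend and robust settings gave 12.4% and 0.949%, and quantile normalisation 7.72% and 0.359%. Over all genes, lower against higher was 2466 to 11 without centring and 493 to 123 with arrays centred on the same probes, where the median difference was -0.58 and -0.05. The cause was not tested. Missing ratios limit the result: 35 of 118 members had no test, and no paired analysis was possible because the cow numbers are not shared between the groups.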
